A study of Homo sapiens with 14 samples.

Results

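The genes described here encode amino acid transporters, membrane proteins of the solute carrier (SLC) families 1, 3, 6, 7, 36, 38 and 43. The set was a list of 33 gene symbols. Each gene was read from the probe set annotated with its symbol alone, or from the brightest such probe set over all arrays. In this way 32 of the 33 genes were measured, among 18372 genes on the arrays, and SLC43A3 was not analysed here. The arrays held total RNA of 7 cell lines of human prostate cancer, with 14 arrays in all, 2 per line from separate passages. The 5 lines of PC3 background were Clone 1 and Clone 3, each the progeny of a single PC3-ML cell, then PC3-ML itself, PC3-N(PDGFRα), which overexpresses the platelet-derived growth factor receptor alpha, and the unmodified subline PC3-N. The 2 lines of DU-145 background were DU-145 (PDGFRα), with the same receptor, and unmodified DU-145. The medium of every line was DMEM, to which fetal bovine serum and gentamicin were added. The labels call Clone 1, Clone 3, PC3-ML and PC3-N(PDGFRα) bone metastatic, and PC3-N, DU-145 (PDGFRα) and DU-145 not. Each clone stands for 1 founder cell, and the labels name no control line that went through the same handling without the receptor.

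Amino acid transporters bring in the building blocks of protein, glutathione and nucleotides, and many of them exchange one amino acid for another across the plasma membrane. SLC7 light chains such as LAT1 reach the cell surface bound to the heavy chain CD98, which SLC3A2 encodes, while the SLC1, SLC6 and SLC38 carriers work alone and use ion gradients. When amino acids run short, the transcription factor ATF4 induces several of these genes, and amino acids inside the cell are sensed at the lysosome by the kinase complex mTORC1. Tumour cells, those of the prostate included, are known for high use of glutamine and leucine.

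Across genes, which are not independent, the correlation was 0.989 to 0.996 between passages of a line, 0.972 to 0.993 between lines of one background and 0.926 to 0.948 between backgrounds. PDGFRA, the receptor gene, read 817.4 and 850.4 in PC3-N(PDGFRα) against 103.3 and 109.4 in PC3-N, and 129.6 and 92.2 in DU-145 (PDGFRα) against 28.2 and 25.5 in DU-145. The epithelial markers EPCAM, KRT8, KRT18 and KRT19 lay above the array median in all 7 lines and CDH1 in 5. The luminal prostate markers KLK3, between 24.2 and 29.6, and KLK2, between 27.3 and 33.9 and above the median in 2 lines, lay near the floor of the scale. Of the leukocyte markers 0 of 3 measured lay above the median in any line, with a sum of 66.6 to 74.3. Of the endothelial markers 1 of 3 did, PECAM1 (up to 104.6), and of the fibroblast markers 2 of 4, with a sum of 117.1 to 132.7. CTNNA1, known to be deleted in PC3 cells, was above the median in the 2 DU-145 lines alone.

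All values are RMA intensities on a linear scale, given per array in the order replicate 1 and replicate 2, and differences are in log2 units with their standard error (SE). The median probe set of an array lay between 29.9 and 31.6, and a level at or under it is called near the floor, where differences are compressed. A gene was called when the limma p, adjusted by the Benjamini-Hochberg method over all 18372 genes, was under 0.05. Both arrays of a line come from one line at different passages, so these p values measure a difference against the spread between passages and not between independently derived lines. The RNA came from whole cultures, so fewer cells with a transcript and less of it per cell cannot be told apart. Different genes are not ranked by intensity, since their probe sets differ.

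Of the 32 transporters, 17 lay above the array median in all 7 lines. These were the neutral exchanger SLC1A5 (ASCT2, known for glutamine), the heavy chain SLC3A2, the taurine transporter SLC6A6, the glycine transporter SLC6A9, the arginine and lysine transporter SLC7A1, the light chains SLC7A5 (LAT1), SLC7A6 and SLC7A11, the SLC36 members SLC36A1 and SLC36A4, the SLC38 members SLC38A1, SLC38A2, SLC38A6, SLC38A7, SLC38A9 and SLC38A10, and SLC43A1 (LAT3), which carries leucine and other large neutral amino acids. A further 4 were above it in some lines: the glutamate transporter SLC1A3 in 5, the alanine, serine and cysteine transporter SLC1A4 in 6, the arginine transporter SLC7A2 in 5 and SLC43A2 in 1. The other 11 were near the floor in all 7 lines. They were the glutamate transporters SLC1A1 and SLC1A2, the heavy chain SLC3A1, SLC6A14, SLC6A15, SLC7A3, SLC7A7, SLC7A8, SLC38A3, SLC38A4 and SLC38A5, and their arrays lay between 20.1 and 29.2. SLC3A1 is the partner of a renal cystine transporter, and SLC6A14 a broad carrier of neutral and cationic amino acids.

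A test over the 7 line means called 14 of the 32 transporters (43.8%), beside 38% of all genes tested. With the mean of a gene's probe sets in place of the brightest, 13 were called. The 14 were SLC1A3, SLC1A4, SLC1A5, SLC3A2, SLC6A6, SLC7A1, SLC7A2, SLC7A5, SLC36A1, SLC36A4, SLC38A1, SLC38A2, SLC38A6 and SLC43A1. All of them came from the 21 transporters above the median in at least 1 line. Over all genes above it in at least 1 line, 12122 in number, 55.6% were called. The other 7 of the 21 were SLC7A11, described below, and 6 whose line means spanned less than those of SLC7A11. They did not span less than those of every called gene: SLC38A10 spanned 0.41 log2 units and the called SLC1A4 0.32. Over the 14 arrays, SLC6A9 lay between 38.1 and 44.6, and SLC7A6, which exchanges cationic for neutral amino acids, between 47.7 and 74.3. The lysosomal glutamine carrier SLC38A7 lay between 29.8 and 38.8 and the lysosomal arginine sensor SLC38A9 between 46.4 and 74.6. SLC38A10 lay between 32.5 and 48.3 and the LAT4 carrier SLC43A2 between 26.9 and 31.5. The plot of line means shows where the differences lie. SLC7A2, SLC38A1 and SLC1A3 had their lowest values in the DU-145 lines, SLC7A11 its highest in PC3-N and Clone 3, and SLC6A6 its highest in Clone 1.

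**Figure D1:**
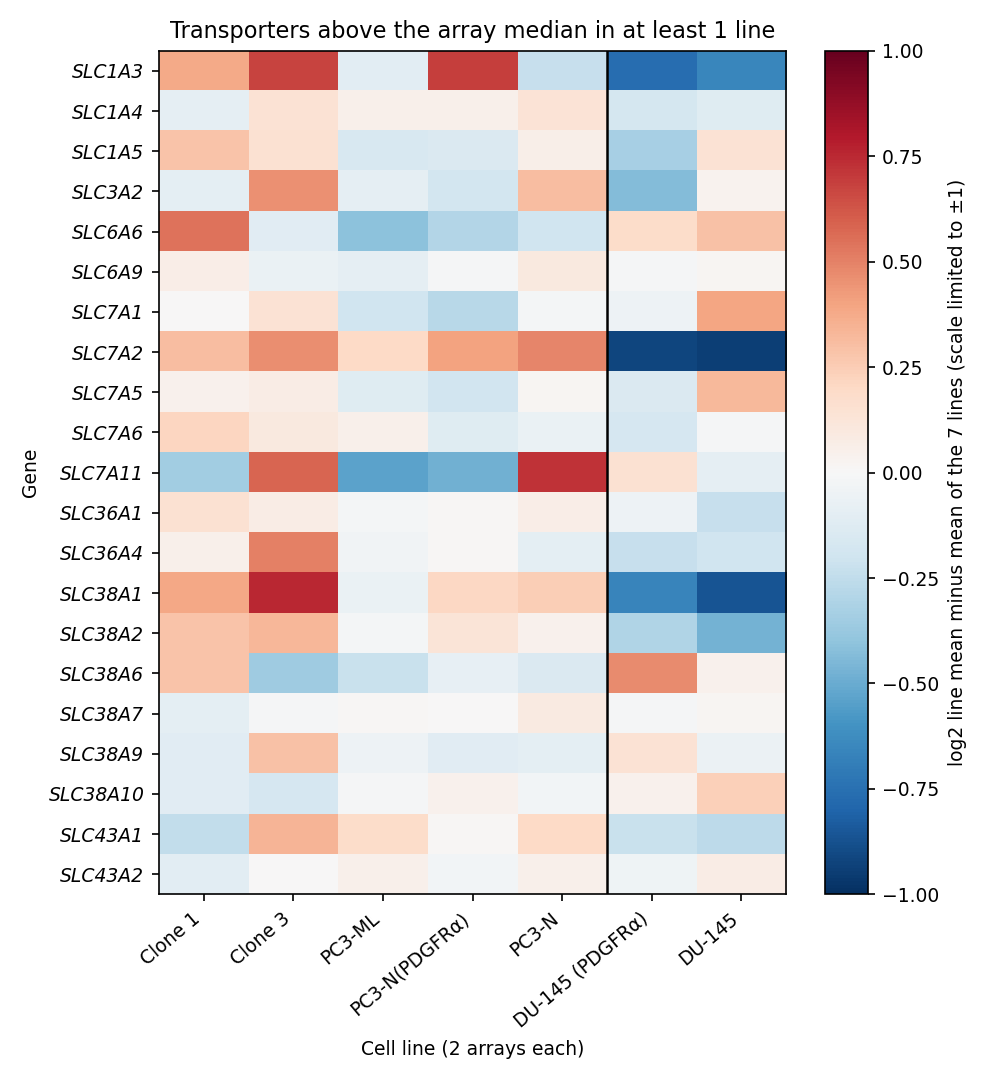
Line means of the 21 transporters above the array median in at least 1 line, as log2 intensity minus the mean of the 7 lines for that gene, with colour limited to 1 log2 unit either way and a vertical line between the 5 PC3 lines and the 2 DU-145 lines. SLC7A2, SLC38A1 and SLC1A3 are blue in both DU-145 lines, and SLC6A6 is darkest red in Clone 1.

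The clearest contrast was between the backgrounds. The 5 PC3 lines read higher than the 2 DU-145 lines for an arginine transporter (SLC7A2), for the sodium-coupled glutamine transporters SLC38A1 and SLC38A2 (SNAT1 and SNAT2) and for the glutamate and aspartate transporter SLC1A3 (EAAT1). Of the 32 transporters, 15 were called, 9 higher and 6 lower in PC3 lines (46.9%), beside 38.8% of all genes, 22.3% higher and 16.5% lower. The median difference over the transporters was −0.0027 beside −0.014 over all genes, and 0.026 beside 0.0066 with quantile normalization. PC3 and DU-145 come from different patients, and the 2 backgrounds are 1 origin each, so the comparison is between these origins alone.

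SLC7A2 read 56.7 and 57.0 in Clone 1, 65.2 and 61.6 in Clone 3, 50.6 and 54.8 in PC3-ML cells, 60.1 and 61.0 in PC3-N(PDGFRα) and 60.8 and 67.9 in PC3-N, against 27.0 and 21.8 in DU-145 (PDGFRα) and 22.7 and 25.2 in DU-145. The groups did not overlap, and the DU-145 values lay near the floor, so the difference of 1.30 (SE 0.06, adjusted p = 9.81e-08) is a low estimate. SLC38A1 read 1373 and 1288 in Clone 1, 1809 and 1628 in Clone 3, 946.3 and 1000.5 in PC3-ML cells, 1270 and 1084 in PC3-N(PDGFRα) and 1508 and 965.5 in PC3-N, against 726.8 and 575.1 in DU-145 (PDGFRα) and 591.7 and 532.1 in DU-145. Every PC3 array was above every DU-145 array here too, by 1.06 on average (SE 0.11, adjusted p = 2.86e-05), with a wide gap between the PC3-N passages. SLC38A2 read 3087 and 2769 in Clone 1, 2983 and 3076 in Clone 3, 2442 and 2307 in PC3-ML cells, 2756 and 2516 in PC3-N(PDGFRα) and 2775 and 2208 in PC3-N, against 2082 and 1833 in DU-145 (PDGFRα) and 1790 and 1686 in DU-145. The backgrounds were again separate, at a difference of 0.54 (SE 0.06, adjusted p = 8.11e-05). SLC38A2 is a textbook target of ATF4 and of hypertonic stress, and imports glutamine, alanine and serine.

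SLC1A3 read 43.2 and 66.5 in Clone 1, 64.5 and 67.5 in Clone 3, 37.9 and 38.6 in PC3-ML cells, 69.2 and 64.1 in PC3-N(PDGFRα) and 39.2 and 31.5 in PC3-N, against 26.1 and 22.7 in DU-145 (PDGFRα) and 23.4 and 29.3 in DU-145. The backgrounds did not overlap (difference 0.99, SE 0.11, adjusted p = 5.06e-05), with DU-145 near the floor, but the PC3 lines spread over a wide range, with PC3-ML and PC3-N lowest. SLC1A4, an exchanger of alanine, serine and cysteine, also had no overlap, at a smaller difference of 0.21 (adjusted p = 0.00354). The arrays of the other 10 called transporters overlapped between the backgrounds. SLC43A1 (0.34), SLC36A4 (0.30), SLC3A2 (0.28) and the lysosomal and plasma membrane carrier SLC36A1 (0.20) were higher in PC3 lines. SLC38A6 (−0.36), SLC6A6 (−0.34), SLC7A1 (−0.24), SLC38A10 (−0.20) and SLC7A5 (−0.13) were lower, as was SLC6A14 (−0.24), which lay near the floor in both backgrounds, between 20.2 and 23.7 in PC3 lines and between 21.6 and 27.3 in DU-145 lines.

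**Figure D2:**
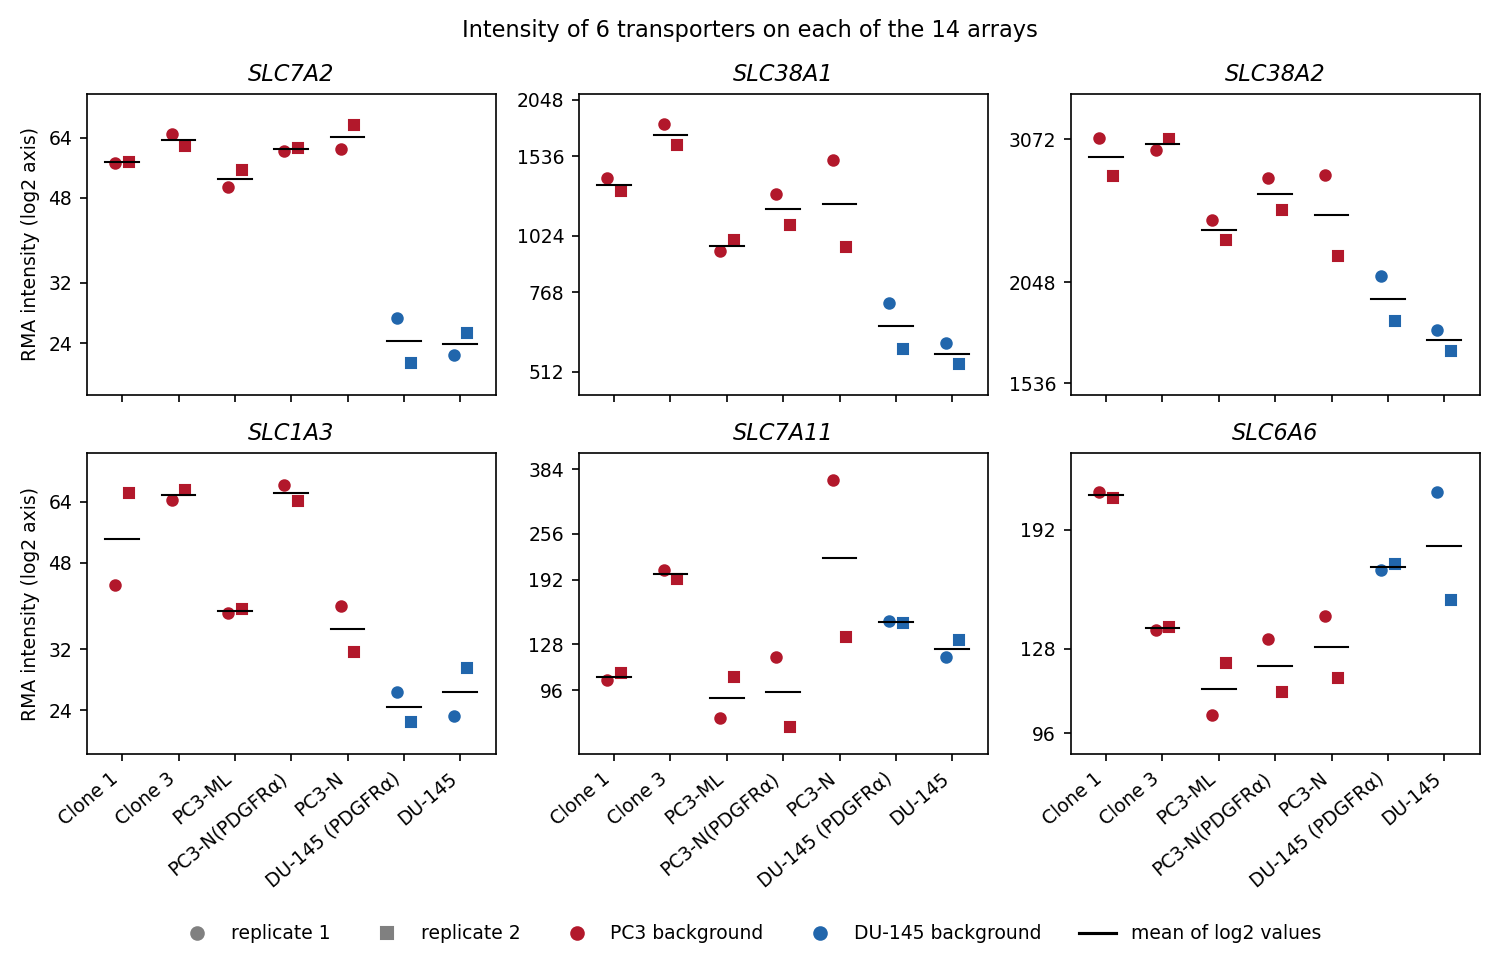
Intensity of 6 transporters on each of the 14 arrays (log2 axis), by line, with circles for replicate 1, squares for replicate 2, red for PC3 background, blue for DU-145 background and a bar at the mean of the log2 values. SLC7A2, SLC38A1, SLC38A2 and SLC1A3 separate the backgrounds, SLC7A11 differs widely between the PC3-N passages (357.9 and 134.2), and SLC6A6 is high in both Clone 1 arrays.

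When each line counted as 1 value, 5 against 2, limma called 4 of the 32 transporters in place of 15, beside 3237 of all 18372 genes in place of 7133. The 4 were SLC7A2 (adjusted p = 0.000275), SLC6A14 (0.0131), SLC38A1 (0.0162) and SLC38A2 (0.0199), with SLC1A3 at 0.0607. Without DU-145 replicate 1, the difference of SLC6A6 was −0.20 (adjusted p = 0.0872), that of SLC7A1 −0.15 (0.157) and that of SLC6A14 −0.16 (0.0237), while that of SLC38A6 was −0.22 (0.00346) without DU-145 (PDGFRα) replicate 1 and that of SLC36A4 0.18 (0.0755) without DU-145 replicate 2. The unmodified, uncloned lines PC3-ML and PC3-N were also set against DU-145 alone, and 10 of the 32 transporters were called, beside 4746 of all 18372 genes. SLC7A2, SLC38A1 and SLC38A2 were among them, and SLC7A5 (−0.38, adjusted p = 0.00113), SLC7A1 (−0.50, 0.00833) and SLC6A6 (−0.60, 0.0113) differed by more than between all lines. In that setting SLC1A3 was not called (0.49, adjusted p = 0.053), nor were SLC3A2 (0.07, adjusted p = 0.773), SLC36A4 (0.13, 0.551), SLC38A6 (−0.23, 0.229) and SLC6A14 (−0.24, 0.0702).

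**Figure D3:**
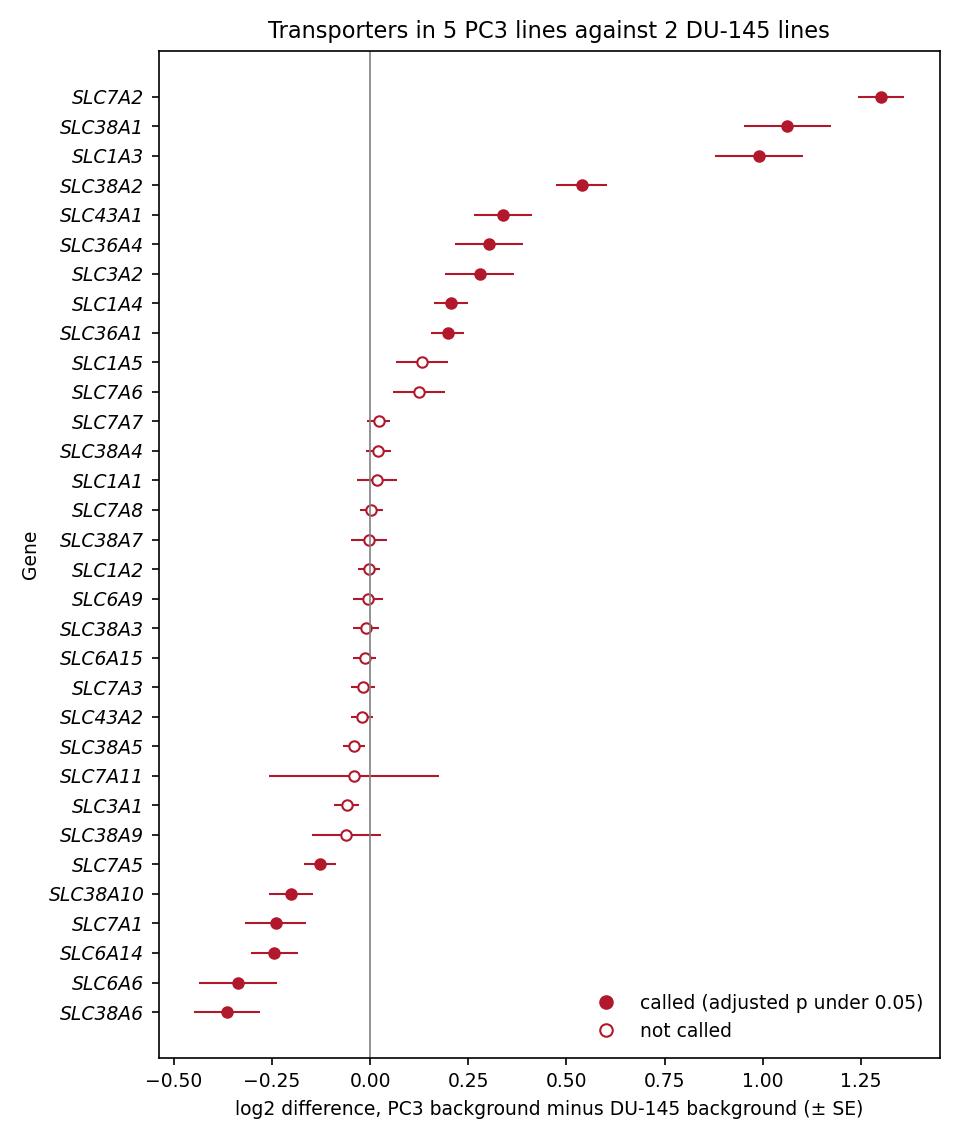
Difference in log2 intensity between the 5 PC3 lines and the 2 DU-145 lines for the 32 transporters, with SE bars, filled points for called and open points for not called. SLC7A2, SLC38A1, SLC1A3 and SLC38A2 lie farthest to the right, at 1.30, 1.06, 0.99 and 0.54.

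Genes that use or sense the same amino acids also differed between the backgrounds in both directions, as did all genes tested, of which 38.8% were called, 22.3% higher and 16.5% lower in PC3 lines. Among 14 measured genes of amino acid synthesis and glutamine metabolism, 6 were higher and 4 lower in PC3 lines. GLUL, the glutamine synthetase (1.14), and SHMT2, the mitochondrial serine hydroxymethyltransferase (0.88), were higher, while BCAT1, which transaminates branched-chain amino acids (−3.24), and PSAT1 of serine synthesis (−1.51) were lower. Among 17 measured genes of the amino acid response, 4 were higher and 6 lower, with NUPR1 (1.96), a stress-induced transcription cofactor, against the lipoprotein receptor VLDLR (−2.71), the angiogenic factor VEGFA (−1.69) and the mTORC1 inhibitor DDIT4 (−1.21). Of 24 genes of amino acid sensing at the lysosome 8 were higher and 6 lower, led by the Rag GTPases RRAGB (1.18) and RRAGC (1.07) in the one direction and RRAGD (−0.94) with the sestrin SESN3 (−0.64) in the other. Of 7 glutathione genes GSS, which completes glutathione synthesis, was higher (0.56), and the reductase GSR (−0.85) and both subunits of glutamate-cysteine ligase, GCLM (−0.53) and GCLC (−0.52), were lower. Of 22 other amino acid transporters 1 was called, the lysosomal histidine carrier SLC15A4 (−0.62). Near the floor, where differences are compressed, VLDLR lay in all PC3 lines (means up to 24.3) and RRAGD in all but Clone 1 (up to 29.8). BCAT1 (up to 24.3) and SESN3 (up to 25.8) lay there in all PC3 lines but PC3-N(PDGFRα). When each line counted as 1 value, SHMT2 (adjusted p = 0.203), RRAGD (0.215), GSS (0.227), GCLM (0.0925) and GCLC (0.0513) were not called. With PC3-ML and PC3-N against DU-145, GSS (0.06, adjusted p = 0.83), SHMT2 (0.30, 0.168) and GCLM (−0.50, 0.0654) were not called, while RRAGD (−1.55) and GCLC (−0.81) differed by more.

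PC3-ML was compared with PC3-N, a bone-metastatic subline against one of the same origin labelled as not. No transporter was called by limma (0 of 32, with 4 at an unadjusted p under 0.05), beside 0.348% of all genes. The largest difference was in SLC7A11 (xCT), the light chain that takes up cystine for glutathione in exchange for glutamate. It read 80.5 and 104.1 in PC3-ML, against 357.9 and 134.2 in PC3-N. The groups did not overlap, but the PC3-N passages lay far apart, and the difference of −1.26 (SE 0.36) had an adjusted p of 0.224. It was −1.97 without PC3-N replicate 2 (adjusted p = 0.00661) and −0.55 without PC3-N replicate 1 (adjusted p = 0.64), so 1 passage decides both its size and its call. In that replicate 1 some genes of the amino acid response and of amino acid synthesis, picked after their values were seen, stood above replicate 2 as well. NUPR1 read 458.1 and 218.9 in the PC3-N passages, GLUL 492.4 and 270.0, the asparagine synthetase ASNS 138.9 and 80.6, and PHGDH, the entry enzyme of serine synthesis, 98.1 and 55.5. What that replicate shares across these genes was not tested. Other genes of the same lists did not stand higher there: ATF5 read 111.9 and 158.9 in the PC3-N passages, GOT1 156.9 and 160.1, and ALDH18A1 110.1 and 112.6. The 3 other transporters with an unadjusted p under 0.05 were SLC3A2 (−0.40, adjusted p = 0.355), SLC7A2 (−0.29, 0.329) and SLC6A9 (−0.19, 0.318).

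PC3-N(PDGFRα) was compared with unmodified PC3-N, to ask what differs in the cells that carry the receptor. Of the 32 transporters 1 was called, higher, beside 2.2% of all genes, 1.52% higher. SLC1A3, which imports glutamate and aspartate, read 69.2 and 64.1 in PC3-N(PDGFRα) against 39.2 and 31.5 in PC3-N, with no overlap (difference 0.92, SE 0.19, adjusted p = 0.0381). The call is close to the threshold. It was lost without any 1 of 10 arrays, both of PC3-ML, PC3-N, PC3-N(PDGFRα), DU-145 (PDGFRα) and Clone 3 (adjusted p between 0.0535 and 0.223), while the difference itself stayed between 0.76 and 1.08. SLC7A11 read 118.0 and 76.2 in PC3-N(PDGFRα), against 357.9 and 134.2 in PC3-N (−1.21, SE 0.36, adjusted p = 0.146). This comparison shares the PC3-N arrays with the one above, and the difference was −1.92 without PC3-N replicate 2 (adjusted p = 0.00489) and −0.50 without its replicate 1 (0.481). SLC3A2, the heavy chain that SLC7A11 needs, had values of 61.6 and 54.6 in PC3-N(PDGFRα) against 90.1 and 74.4 in PC3-N (−0.50, adjusted p = 0.141), and its partner SLC7A5 differed by −0.21 (adjusted p = 0.195). Neither was called. In the pathway lists, STC2, a secreted glycoprotein of the ATF4 response, read 58.0 and 60.5 in PC3-N(PDGFRα) against 146.9 and 91.9 in PC3-N (−0.97, SE 0.19, adjusted p = 0.0304) and LAMTOR3, a scaffold that holds mTORC1 sensing at the lysosome, read 165.3 and 150.3 in PC3-N(PDGFRα) against 98.4 and 114.2 in PC3-N (0.57, adjusted p = 0.0188). They were called alone among 17 and 24 measured genes, and both lost the call without PC3-N replicate 1 or without either PC3-N(PDGFRα) array, STC2 also without either Clone 1 array (adjusted p up to 0.178 for STC2 and 0.15 for LAMTOR3). Without PC3-N replicate 1 the difference of STC2 was −0.63 (adjusted p = 0.0911).

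In DU-145, where neither line is labelled bone metastatic, 1 transporter of 32 was called, lower with the receptor, beside 0.31% of all genes, 0.245% lower. Over all genes 12 were higher and 45 lower, and with quantile normalization 23 and 51. SLC7A5 (LAT1), the leucine exchanger that feeds mTORC1, read 64.5 and 61.9 in DU-145 (PDGFRα) against 88.4 and 86.4 in DU-145. The passages of each line lay close together, and the difference was −0.47 (SE 0.07, adjusted p = 0.0405). Its heavy chain SLC3A2 read 54.9 and 43.4 in DU-145 (PDGFRα) against 64.4 and 71.0 in DU-145 (−0.47, adjusted p = 0.213). SLC1A5, whose product is known to supply glutamine that LAT1 exchanges for leucine, read 49.9 and 45.0 in DU-145 (PDGFRα) against 70.9 and 61.6 in DU-145 (−0.48, adjusted p = 0.115). The arginine transporter SLC7A1 read 54.8 and 56.2 in DU-145 (PDGFRα) against 86.1 and 66.6 in DU-145 (−0.45, adjusted p = 0.182). None of these 3 genes was called. The SLC7A5 call was lost with a variance trend (adjusted p = 0.0777) and without any 1 of 9 arrays, among them DU-145 replicate 1 and both DU-145 (PDGFRα) arrays (adjusted p between 0.0674 and 0.136). Its difference stayed between −0.50 and −0.43. SLC38A6, a SLC38 family member, read 174.7 and 118.2 in DU-145 (PDGFRα) against 108.3 and 105.7 in DU-145 (0.43, adjusted p = 0.238).

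Genes of the pathway lists that were called in DU-145 (PDGFRα) against DU-145 were all lower, 1 of each of 4 lists. The lists held 17, 14, 24 and 22 measured genes, and 0 of 7 glutathione genes were called. Of all genes 0.31% were called, 12 higher and 45 lower. VLDLR read 130.7 and 118.9 in DU-145 (PDGFRα) against 219.5 and 171.3 in DU-145 (−0.64, adjusted p = 0.0405). ALDH18A1, the first enzyme of proline synthesis, read 55.8 and 50.5 in DU-145 (PDGFRα) against 99.0 and 82.6 in DU-145 (−0.77, adjusted p = 0.0405). RRAGD, a Rag GTPase that recruits mTORC1, read 50.5 and 43.9 in DU-145 (PDGFRα) against 91.2 and 71.5 in DU-145 (−0.78, adjusted p = 0.0437), and CTNS, the lysosomal cystine exporter, 44.8 and 39.6 in DU-145 (PDGFRα) against 63.4 and 57.3 in DU-145 (−0.52, adjusted p = 0.0437). VLDLR, ALDH18A1 and CTNS each lost the call without any 1 of 11 of the 14 arrays and RRAGD without any 1 of 13, arrays of other lines included (adjusted p up to 0.165).

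The proximal promoters of SLC7A5, SLC3A2 and SLC7A1 are shown because these genes, with SLC1A5, had the 4 largest negative differences among transporters in DU-145 (PDGFRα) against DU-145. They were picked after these values were seen, and 1 of the 4 was called. The windows run from 250 bases before an annotated start of the gene to 50 after it, on the gene's strand, from RefSeq (GRCh38.p14). For SLC3A2 this start lies inside the gene, whose first base is at 62856109 on chromosome 11. Capitals mark matches, on either strand, to TGATGNAA, the core of the amino acid response element that ATF4 binds, and to TGACNNNGC, the antioxidant response element that NRF2 binds.
SLC7A5, chr16:87869458-87869757, minus strand: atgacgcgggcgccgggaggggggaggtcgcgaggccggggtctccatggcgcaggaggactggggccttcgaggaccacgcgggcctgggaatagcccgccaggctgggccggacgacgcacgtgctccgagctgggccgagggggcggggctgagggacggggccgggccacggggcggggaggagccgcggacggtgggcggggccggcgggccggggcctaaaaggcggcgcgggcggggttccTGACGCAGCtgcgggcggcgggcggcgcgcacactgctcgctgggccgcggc
SLC3A2, chr11:62881449-62881748, plus strand: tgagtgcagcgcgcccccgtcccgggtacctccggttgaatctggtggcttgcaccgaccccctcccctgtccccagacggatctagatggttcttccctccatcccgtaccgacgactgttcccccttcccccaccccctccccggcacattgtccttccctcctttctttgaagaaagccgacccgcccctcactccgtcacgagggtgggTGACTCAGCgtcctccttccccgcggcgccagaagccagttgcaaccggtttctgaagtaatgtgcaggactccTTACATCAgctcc
SLC7A1, chr13:29595639-29595938, minus strand: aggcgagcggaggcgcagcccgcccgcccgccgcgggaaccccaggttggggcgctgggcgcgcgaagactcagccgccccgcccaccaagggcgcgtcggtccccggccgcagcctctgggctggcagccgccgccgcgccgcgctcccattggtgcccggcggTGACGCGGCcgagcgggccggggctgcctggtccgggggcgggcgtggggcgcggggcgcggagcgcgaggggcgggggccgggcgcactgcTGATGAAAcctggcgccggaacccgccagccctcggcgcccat
The SLC7A5 window holds 1 match to the antioxidant motif, whose first base lies 2 before the start, and 0 to the ATF4 motif. SLC3A2, for which 1 of its 3 windows is shown, holds the antioxidant motif 37 bases before the start and the ATF4 motif 37 after it. The SLC3A2 match to the ATF4 motif lies on the opposite strand. SLC7A1 holds them 85 before and 7 after. The 2 motifs did not overlap in these windows. SLC1A5, whose windows are not shown, held the antioxidant motif 111 bases before the start in 1 window, on the opposite strand. In another of its windows the ATF4 motif lay 97 bases before the start. The ATF4 motif was found in 3.62% of 35116 promoter windows of all genes and in 6 of the 45 windows of transporters (13.3%), with 24 transporters having a window, and the antioxidant motif in 13.3% of all windows and 7 of 45 (15.6%). A match is a string of letters and shows no binding.

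The difference between the receptor comparisons in PC3-N and in DU-145 was tested directly. Limma called 0 of the 32 transporters, with 4 at an unadjusted p under 0.05, beside 0.533% of all genes. SLC7A11 differed by −1.21 in PC3-N and 0.24 in DU-145, a difference of −1.45 (SE 0.52, adjusted p = 0.28), which was −2.16 without PC3-N replicate 2 (adjusted p = 0.02) and −0.75 without its replicate 1 (adjusted p = 0.38). SLC1A3 differed by 0.92 in PC3-N and −0.10 in DU-145, where both lines lay near the floor (difference 1.03, SE 0.27, adjusted p = 0.145). SLC7A5 differed by −0.21 and −0.47, so its call in DU-145 alone is not a shown difference between backgrounds (0.26, adjusted p = 0.316). The fourth at an unadjusted p under 0.05 was SLC36A1 (−0.24, adjusted p = 0.384).

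**Figure D4:**
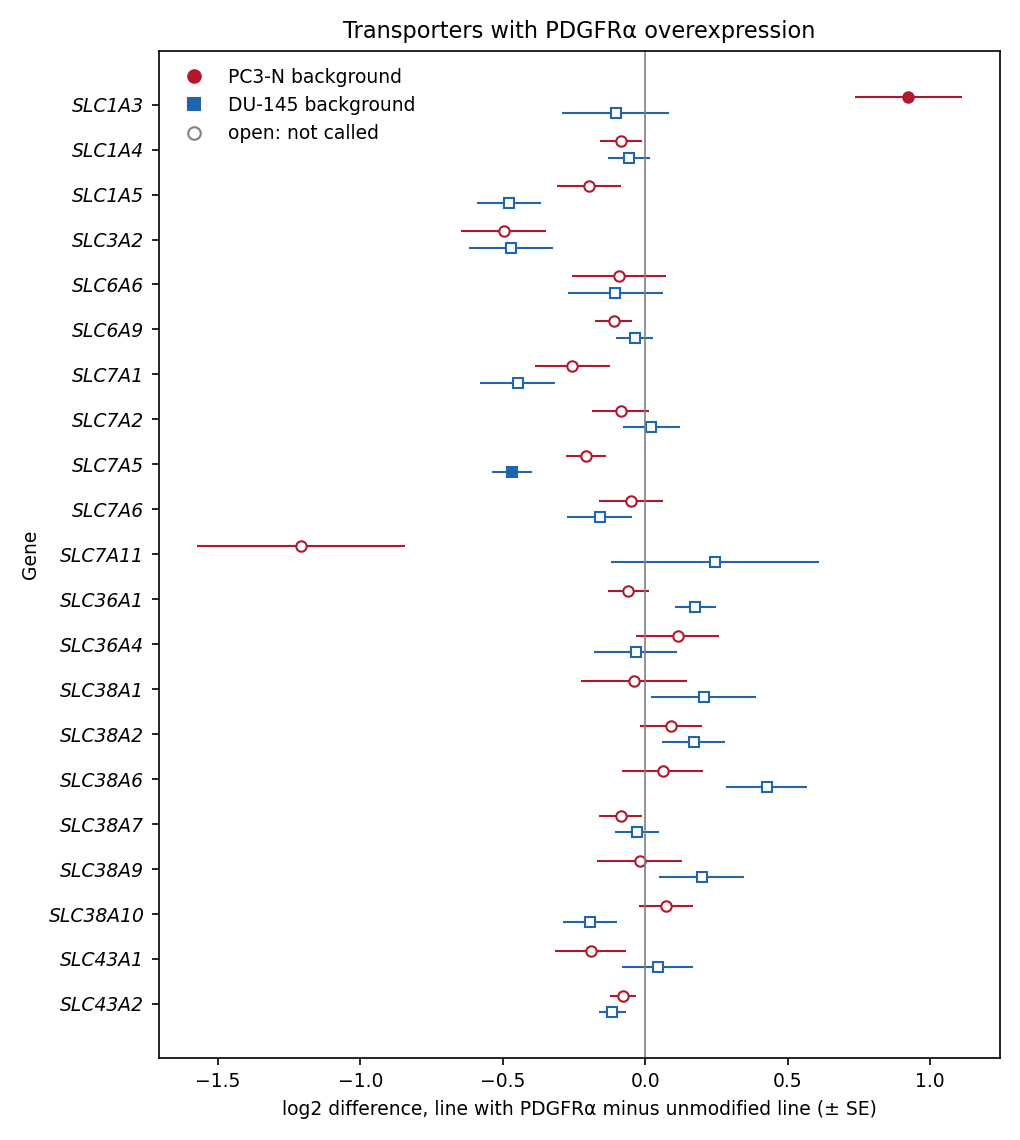
Difference in log2 intensity between the line with PDGFRα and its unmodified parent line, with SE bars, for the 21 transporters above the array median in at least 1 line, in PC3-N (red circles) and DU-145 (blue squares). Filled symbols mark the called genes, SLC1A3 in PC3-N (0.92) and SLC7A5 in DU-145 (−0.47).

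Each clone of PC3-ML was compared with its parent, whose 2 arrays both comparisons share. Clone 1 read higher for the taurine transporter SLC6A6, and Clone 3 for the glutamine transporter SLC38A1 and the glutamate transporter SLC1A3. In Clone 1, 4 of 32 were called, 3 higher and 1 lower (12.5%), beside 13.8% of all genes, 9.01% higher and 4.77% lower. SLC6A6, which imports taurine, read 218.0 and 213.6 in Clone 1 against 102.1 and 121.9 in PC3-ML (0.95, SE 0.17, adjusted p = 0.00429). The widest gap between passages of a line was 0.53, in DU-145, where replicate 1 read 218.3. SLC6A6 was called in all 19 alternative settings. SLC1A5, the glutamine exchanger, read 73.6 and 71.8 in Clone 1 against 50.5 and 56.6 in PC3-ML (0.44, adjusted p = 0.0279), and SLC38A6 121.1 and 131.1 in Clone 1 against 87.6 and 90.2 in PC3-ML (0.50, adjusted p = 0.0421). SLC43A1, the LAT3 leucine carrier, was lower, at 35.0 and 42.3 in Clone 1 against 48.9 and 54.9 in PC3-ML (−0.43, adjusted p = 0.0489). The last 3 lost their call without some arrays: SLC1A5 without PC3-ML replicate 1 or either Clone 1 array (adjusted p up to 0.199), SLC38A6 without any 1 of 12 arrays (up to 0.216) and SLC43A1 without any 1 of 9 (up to 0.294). With the mean of its probe sets, SLC1A5 differed by 0.24 and was not called (adjusted p = 0.152). With quantile normalization 2 were called, both higher, without SLC38A6 and SLC43A1.

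In Clone 3, 2 of 32 were called, both higher (6.25%), beside 8.1% of all genes, 5.2% higher. SLC38A1 read 1809 and 1628 in Clone 3 against 946.3 and 1000.5 in PC3-ML (0.82, SE 0.19, adjusted p = 0.0256). SLC1A3 read 64.5 and 67.5 in Clone 3 against 37.9 and 38.6 in PC3-ML (0.79, SE 0.19, adjusted p = 0.0313). Both genes were separate between the lines, and both lost the call without any 1 array of the pair (adjusted p up to 0.159 and 0.169). SLC7A11 read 204.5 and 192.8 in Clone 3 against 80.5 and 104.1 in PC3-ML, also with no overlap (1.12, SE 0.36, adjusted p = 0.1). The PC3-N passages, which lie far apart, enter its estimate of spread, and it was called without either of them (adjusted p = 0.00813). SLC3A2, its heavy chain, read 96.5 and 85.5 in Clone 3 against 54.8 and 70.0 in PC3-ML (0.55, adjusted p = 0.0506). SLC36A4, a carrier of proline and tryptophan, read 189.7 and 169.4 in Clone 3 against 126.0 and 120.6 in PC3-ML (0.54, adjusted p = 0.0508).

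Set against each other, the clones differed in 4 of the 32 transporters (12.5%), 2 in each direction, beside 10.5% of all genes, 5.85% higher and 4.63% lower in Clone 1. SLC6A6 (0.65, SE 0.17, adjusted p = 0.0334) and SLC38A6 (0.64, adjusted p = 0.0177) were higher in Clone 1. SLC43A1, at 35.0 and 42.3 in Clone 1 against 60.6 and 55.0 in Clone 3 (−0.58, adjusted p = 0.0149), and SLC3A2, at 61.0 and 62.5 in Clone 1 against 96.5 and 85.5 in Clone 3 (−0.56, adjusted p = 0.0412), were lower. SLC7A11 read 101.9 and 107.0 in Clone 1 against 204.5 and 192.8 in Clone 3 and was not called (−0.93, adjusted p = 0.171), but was without either PC3-N array (0.0128). All 4 calls were lost without at least 1 array of the clones (adjusted p up to 0.147 for SLC6A6, 0.12 for SLC38A6 and SLC43A1, and 0.229 for SLC3A2). SLC43A1 lost it without replicate 1 of either clone, and the other 3 without any 1 of the 4 clone arrays, SLC3A2 also without either PC3-N(PDGFRα) array and SLC6A6 without either DU-145 (PDGFRα) array. With quantile normalization 2 were higher and 1 lower, without SLC3A2.

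The pathway genes called in the clones included several that act on the same amino acids. Of all genes tested, 13.8% were called in Clone 1 (9.01% higher, 4.77% lower), 8.1% in Clone 3 (5.2% higher) and 10.5% between the clones. Of 14 synthesis genes, 4 were higher in Clone 1 than in PC3-ML: SHMT2 (1.30), the mitochondrial aspartate transaminase GOT2 (0.64), the argininosuccinate synthase ASS1 (0.63) and ALDH18A1 (0.50). In Clone 3 against PC3-ML 1 was higher, SHMT2 (0.96). Of 24 sensing genes, RRAGD (1.42), the kinase MTOR itself (0.86) and the sestrin SESN1 (0.62) were higher in Clone 1 than in PC3-ML. RHEB, the GTPase that activates mTORC1, was lower there (−0.43). In Clone 3 against PC3-ML, RRAGB was higher (0.76) and LAMTOR5 lower (−0.29). GSS was higher in Clone 1 than in PC3-ML (0.96), 1 of 7 glutathione genes. Between the clones, RRAGD (1.54), MTOR (0.75) and SESN1 (0.55) were higher and RHEB (−0.31) lower in Clone 1, as 3 higher and 2 lower of the sensing genes were called, and of the synthesis genes the aspartate transaminase GOT1 (0.67) and ASS1 (0.59) were higher. SHMT2 and GSS in Clone 1, and RRAGD, MTOR and SESN1 in both comparisons, were called in all 19 alternatives. RRAGD lay near the floor in PC3-ML (26.3 and 25.0) and in Clone 3 (22.9 and 24.4), where differences are compressed. In Clone 1 against PC3-ML, the calls of GOT2 (adjusted p up to 0.128), ASS1 (0.206), ALDH18A1 (0.13) and RHEB (0.0657) were lost without PC3-ML replicate 1 or without Clone 1 replicate 2, and that of ASS1 also without the other PC3-ML array. In Clone 3, SHMT2 was not called without PC3-ML replicate 1 or Clone 3 replicate 1 (adjusted p up to 0.0733), RRAGB without any 1 of 9 arrays (up to 0.299) and LAMTOR5 without any 1 of 10, with the filter on dim probe sets or with a variance trend (up to 0.196). Between the clones, ASS1 was not called without any 1 of 11 arrays (0.39 with an adjusted p of 0.285 without Clone 1 replicate 2), RHEB without any 1 of 12, with that filter or with that trend (up to 0.263), and GOT1 without Clone 1 replicate 1 (0.0564).

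The series title asks about bone-metastatic against other lines. On the 7 line means, 4 against 3, limma called 0 transporters and 0 of all genes (0%), with 2 transporters and 2250 genes at an unadjusted p under 0.05 and a smallest adjusted p of 0.405 over all genes. SLC1A3 lay between 37.9 and 69.2 (median 64.3) in bone-metastatic arrays and between 22.7 and 39.2 (median 27.7) in the others (0.96, SE 0.23, adjusted p = 0.405). The arrays overlapped where PC3-ML met PC3-N replicate 1. Within the PC3 lines alone, 4 against 1, the SLC1A3 difference was 0.64. The other of the 2 was SLC38A2 (0.42, SE 0.14, adjusted p = 0.405). Its mean in PC3-N (2491) lay above PC3-ML (2375) and under PC3-N(PDGFRα) (2636), Clone 1 (2928) and Clone 3 (3029). DU-145 (1738) and DU-145 (PDGFRα) (1957) were lowest. This test treats the 7 lines as independent, although they share origins. SLC7A2 had a difference of 0.80 (SE 0.36, adjusted p = 0.414), which was −0.14 within the PC3 lines alone, 4 against 1. All 4 bone-metastatic lines are of PC3 background, and 2 of the 3 others are of DU-145 background. PC3-N alone is of PC3 background without the bone-metastatic label. Its SLC7A2 mean (64.3) was the highest of the 7 lines, while both DU-145 lines lay near the floor. Since 1 line alone separates background from label, the part of each in the SLC7A2 difference cannot be told apart and was not tested.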

How the data were processed

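Gene expression was measured in 7 prostate cancer cell lines with 14 single-colour arrays. Per the submitters' processing notes the authors processed the arrays with RMA, version not given in the sources used here, and the deposited values are intensities on a linear scale, from 18.5 to 8654. Tests used their log2, with a pseudocount of 0. Of 28829 probe sets, 19291 carried 1 gene symbol, 1735 several and 7803 none in the probe table, and the brightest probe set stood for each of the 682 genes with several, which left 18372 genes. Where a gene's identifier matched RefSeq (19260 probe sets), names came from there.

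A single limma 3.58.1 model in R 4.3.3, with 1 mean for each line, took all arrays (7 residual degrees of freedom), two-sided, with p adjusted over all genes, and was tested on simulated data. Bone-metastatic lines were compared on line means. The members, the pathway lists and the tests were chosen with earlier results of these data known. Named were all called transporters, up to 15 per comparison, others differing by at least 0.8 log2, and up to 4 called genes per list; further genes were named after their values were seen. Alternatives were quantile normalization, a filter on dim probe sets, averaged probe sets, a variance trend with robust estimation, a replicate block, leaving out each array, and other groupings of the lines. The number of arrays limits the precision.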

Additional observations from a re-analysis of the deposited data

Results flagged for a closer look

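Among the 4 bone-metastatic lines, 5 transporters had 1 line mean far from the other 3, by Dixon's ratio of its gap to the whole range at the 95% level. Chance alone flags about 1 in 20 groups, and 32 were tried. Clone 3 stood above the rest in 4 of them: SLC3A2 (ratio 0.854, mean 91.0), SLC38A9, the lysosomal arginine sensor (0.845, mean 69.8), SLC36A4 (0.836, mean 179.5) and SLC7A11 (0.83, mean 198.6). In the fifth, PC3-ML was below the rest for SLC1A1 (0.872, mean 24.9), near the floor in every line. Against PC3-ML, none of the 4 genes of Clone 3 was called over all genes.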

How the results depend on the processing

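For 35 transporter results named above, 694 alternative values were computed, of which 559 kept direction and side of the threshold, 134 crossed the threshold and 1 reversed, SLC7A2 in bone-metastatic against other lines (−0.14 within PC3 lines). With a replicate block the count was 0 against 1 for PC3-N(PDGFRα) over PC3-N, 0 against 1 for DU-145 (PDGFRα) over DU-145 and 4 against 2 for Clone 3 over PC3-ML; the samples share only a number (same-numbered deviations correlated at −0.199 to 0.245 over 21 pairs of lines), and the block moved no other transporter count by over 1.5 times. A variance trend gave 0 for DU-145 (PDGFRα) and 5 for Clone 3, a filter on dim probe sets 5 for Clone 3, quantile normalization 2 against 4 for Clone 1, and line means 4 against 15 between backgrounds. Leaving out 1 array gave 0 to 1 for PC3-ML over PC3-N, for PC3-N(PDGFRα) and for the difference of receptor effects, 0 to 2 for DU-145 (PDGFRα), 1 to 4 for Clone 1, 0 to 6 for Clone 3, 0 to 6 between clones, 10 to 15 between backgrounds and 11 to 15 over all lines. Over all genes, it gave 12 to 170 (64 with all arrays) for PC3-ML, 71 to 500 (405) for PC3-N(PDGFRα), 9 to 418 (57) for DU-145 (PDGFRα), 26 to 249 (98) for the difference, 1213 to 2791 (2533) for Clone 1, 431 to 1718 (1489) for Clone 3 and 1018 to 2123 (1925) between clones; the filter gave 105 and the block 42 for PC3-ML, a variance trend 100 and the block 10 for DU-145 (PDGFRα), and between backgrounds line means gave 3237 and the unmodified lines 4746 (7133). Causes were not tested. The filter left 12164 genes and 21 transporters. With 2 passages per line, and levels near the floor, small differences were not resolved.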

Other observations

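SLC1A5 was the 1 transporter with several probe sets. The second ran from 30.4 to 45.0, the one used from 45.0 to 73.6. With the mean of a gene's probe sets, the test over all lines called 13 transporters in place of 14, and SLC1A5 was not called in Clone 1 against PC3-ML.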
